A study of Mus musculus with 48 samples.

Results

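The 10 genes described here encode structural proteins of the axonal and dendritic cytoskeleton: the neurofilament subunits Nefl, Nefm, Nefh and Ina, the microtubule-associated proteins Mapt, Map2, Map1a, Map1b and Dcx, and the neuronal beta-tubulin Tubb3. They were taken by symbol from a table of 24444 genes measured by RNA-seq in the cerebral cortex of mice, and all 10 were found and passed the filter on low values at every age. No cut-off on these values was used to choose them, but they were chosen with earlier results of these data known. The table holds 48 samples from C57BL/6J mice taken on embryonic day 14.5 (E14.5) or at 1, 6 or 12 months, with 6 wild-type (WT) and 6 Chd8 V986*/+ animals per age. Chd8 encodes a chromatin remodeler, and the V986* allele, made by CRISPR/Cas9 insertion of stop codons into C57BL/6J blastocysts, was carried on 1 chromosome, with WT littermates as controls. According to the study the mice used for RNA-seq were male, and the cortex of a single hemisphere was taken. The allele is present from conception in every cell, so the cell type and age at which a difference arose cannot be told apart.

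Neurofilaments are the intermediate filaments of neurons. The light (Nefl), medium (Nefm) and heavy (Nefh) chains and alpha-internexin (Ina) co-assemble, and a neuron changes the proportions of these subunits as its axon matures, with alpha-internexin prominent early and the heavy chain late. Microtubules are polymers of alpha- and beta-tubulin. Tau (Mapt) binds them mainly in axons, MAP2 mainly in dendrites, MAP1B is prominent in growing axons and MAP1A in mature neurons, and doublecortin (Dcx) is a protein of migrating and newly born neurons.

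Expression was given as variance-stabilizing transformation (VST) values, which are on a log2 scale and not corrected for transcript length, so that levels are compared here between samples for each gene and not between genes. The most frequent value, 2.14, is called the floor here, although 6.06% of all values lay below it. A gene counted as above the floor had a group mean at least 0.5 higher than this. Differences are given on this log2 scale, as means ± SD over 6 mice for levels and as a difference with its standard error (SE) for comparisons, and a fold change derived from it understates the change of genes with low values. Genes with an adjusted p value (adjp) below 0.1 in limma, a linear-model test fitted across all genes of the table, were counted as differentially expressed.

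Chd8 itself was lower in Chd8 V986*/+ mice at all ages, with no overlap between genotypes. Its level was 12.55 ± 0.13 in WT and 11.92 ± 0.16 in Chd8 V986*/+ embryos (n = 6 each), and its differences at E14.5, 1, 6 and 12 months were -0.63, -0.67, -0.64 and -0.54. The 10 markers of cortical glutamatergic neurons, such as Emx1 and Tbr1, were above the floor at every age in both genotypes. The libraries were not alike in all respects. In WT replicate 1 and Chd8 V986*/+ replicate 1 at E14.5 and in WT replicate 6 at 12 months, the median deviation of transcripts of at least 8000 bases from their group mean lay 0.41, 0.60 and 0.50 below that of transcripts of at most 2000 bases, whereas the other 45 samples lay between -0.09 and 0.30. Map1a, Map1b and Dcx have transcripts of 11825, 11852 and 9074 bases. In addition, WT replicate 5 at E14.5 had the highest level of genes from midbrain, hindbrain and spinal cord. By the root mean square difference from the mean of the rest of its group, WT replicate 6 at E14.5 lay farthest of all 48 samples (0.40). WT replicate 6 at 12 months and WT replicate 5 at E14.5 came next (both 0.37). Some of the results that rest on these libraries are given with and without them.

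**Figure D1:**
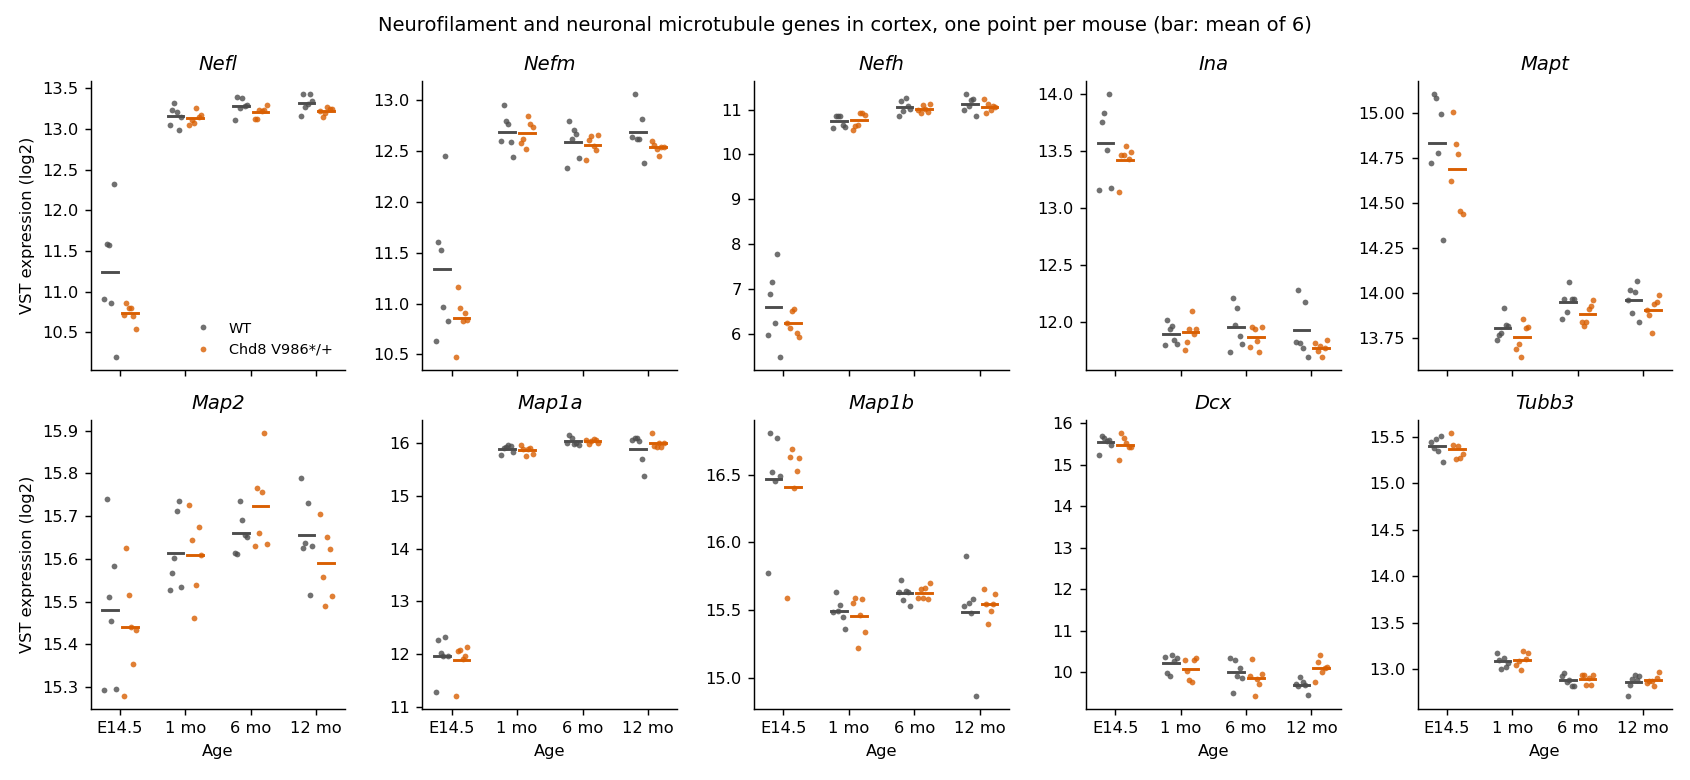
VST expression (log2, vertical axes with their own range) of the 10 genes at E14.5, 1, 6 and 12 months in WT (gray) and Chd8 V986*/+ (orange) mice, with 1 point per mouse and a bar at the mean of 6. Nefh and Map1a rise and Dcx and Tubb3 fall between E14.5 and 1 month in both genotypes, and the WT embryos are spread from 10.20 to 12.32 for Nefl.

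Most of the 10 genes changed before 1 month of age. Between E14.5 and 1 month, 9 of the 10 genes changed in WT cortex, when 85.7% of all genes tested did. Nefl, Nefm, Nefh and Map1a rose (43.4% of all genes rose), Ina, Mapt, Map1b, Dcx and Tubb3 fell (42.3% fell), and Map2 did not pass the test. The groups did not overlap for 3 of the genes that rose and all 5 that fell, as for 35% and 33.5% of all genes. The same comparison in Chd8 V986*/+ cortex gave 10 of 10 genes, against 86.1% of all genes (43.7% higher, 42.4% lower), with the same directions and Map2 added to the genes that rose. The median change of the 10 genes was -0.42 in WT, beside 0.02 over all genes. In bulk tissue, fewer cells of a type and less RNA per cell cannot be told apart.

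The neurofilament heavy chain rose most among the 4 subunits. Nefh values in WT embryos were 5.50 at the lowest, 6.57 at the median and 7.78 at the highest, and in WT mice of 1 month 10.58, 10.76 and 10.87. The groups did not overlap, and the difference was 4.14 (SE 0.29, adjp = 1.2e-09), or 17.7-fold. In Chd8 V986*/+ mice Nefh went from between 5.95 and 6.57 to between 10.55 and 10.92, a difference of 4.52 (SE 0.11, adjp = 1.3e-15).

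The light chain, the core subunit of the filament, rose less. Nefl in WT was 10.20, 11.24 and 12.32 (lowest, median and highest) at E14.5 and 12.98, 13.18 and 13.32 at 1 month, with no overlap. Its increase was 1.92 (SE 0.25, adjp = 3.3e-06) in WT, 2.13 without WT replicate 5, and 2.39 (SE 0.06, adjp = 7.1e-16) in Chd8 V986*/+ mice. The medium chain Nefm rose by 1.35 (SE 0.23, adjp = 6.4e-05) in WT, from a median of 11.25 to 12.68, and by 1.81 (SE 0.09, adjp = 1.0e-11) in Chd8 V986*/+ mice. The WT groups of Nefm overlapped at the edge, since the highest embryo (12.45, replicate 5) was just above the lowest mouse of 1 month (12.44).

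Alpha-internexin moved the other way. Ina in WT was 13.16, 13.63 and 13.9994 at E14.5 and 11.80, 11.89 and 12.02 at 1 month, so that every embryo was above every postnatal mouse. It fell by 1.67 on the log2 scale (SE 0.13, adjp = 3.7e-09), a 3.19-fold change, and its difference in Chd8 V986*/+ mice was -1.51 (SE 0.07, adjp = 4.0e-12).

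Because the subunits share a filament, their differences within each mouse were also followed. These differences carry the transcript lengths of both genes, so only their change with age is read, and no test was made of them. The difference of Nefh and Nefl in WT went from -4.65 ± 0.18 at E14.5 to -2.42 ± 0.08, -2.23 ± 0.06 and -2.20 ± 0.14 at 1, 6 and 12 months (n = 6 each). From E14.5 to 1 month it therefore rose by 2.23 in WT and 2.13 in Chd8 V986*/+ mice. The difference of Nefm and Nefl fell over the same interval by 0.57 in WT and 0.58 in Chd8 V986*/+ mice, and a further 0.23 and 0.19 from 1 to 6 months. The difference of Ina and Nefl changed sign, from 2.33 ± 0.44 in WT embryos to -1.26 ± 0.09 at 1 month, and from 2.69 ± 0.17 to -1.22 ± 0.06 in Chd8 V986*/+ mice. The WT embryos, which varied widely for Nefl and Nefh, were close together for the difference of both, from -4.93 to -4.40.

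**Figure D2:**
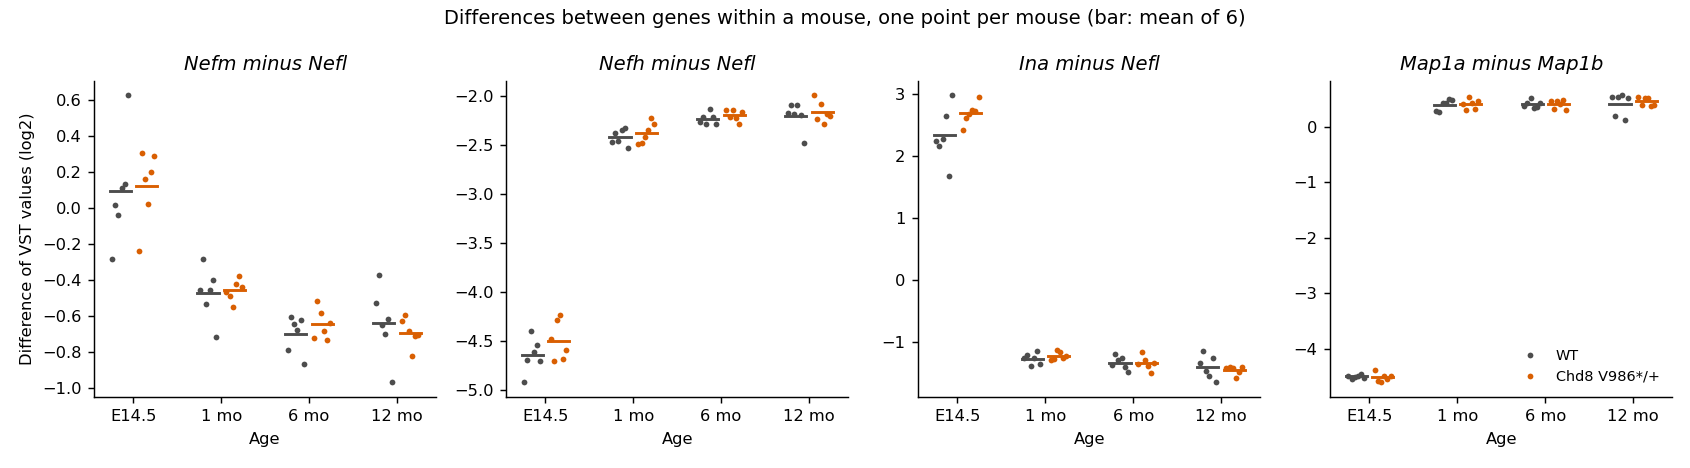
Difference of VST values (log2, vertical axes) between pairs of genes within each mouse at E14.5, 1, 6 and 12 months, for Nefm minus Nefl, Nefh minus Nefl, Ina minus Nefl and Map1a minus Map1b, in WT (gray) and Chd8 V986*/+ (orange) mice with bars at the mean of 6. The large step lies between E14.5 and 1 month in each panel, and the means of the genotypes, at -2.42 and -2.37 for Nefh minus Nefl at 1 month, are farthest apart for Ina minus Nefl at E14.5 (2.33 and 2.69).

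Among the microtubule-associated proteins, doublecortin had the largest change. Dcx in WT was 15.25, 15.59 and 15.70 at E14.5 and 9.91, 10.31 and 10.42 at 1 month, far apart and without overlap. The difference was -5.32 (SE 0.10, adjp = 2.0e-16), a 40.0-fold fall, and -5.40 (SE 0.12, adjp = 3.8e-16) in Chd8 V986*/+ mice. The range of the 4 WT age means of Dcx, 5.84, was larger than that of 99.1% of 17311 genes.

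Map1a and Map1b, which encode related microtubule-binding proteins, changed in opposite directions. Map1a in WT rose from 11.29, 11.99 and 12.31 in embryos to 15.77, 15.92 and 15.97 at 1 month, by 3.93 (SE 0.13, adjp = 1.6e-13). Map1b in WT went from 15.78, 16.50 and 16.81 to 15.36, 15.49 and 15.63, and fell by 0.98 on the log2 scale (SE 0.14, adjp = 1.0e-05). Neither gene's groups overlapped, and in Chd8 V986*/+ mice the differences were 3.98 (SE 0.12) and -0.95 (SE 0.16). For both genes the lowest embryo of each genotype was replicate 1, at 11.29 and 11.21 for Map1a and 15.78 and 15.59 for Map1b, the libraries in which long transcripts were low. Without that replicate the differences were 3.79 and -1.11 in WT and 3.85 and -1.12 in Chd8 V986*/+ mice. The difference of Map1a and Map1b within a mouse varied far less, from -4.54 to -4.46 in the 6 WT embryos, and rose by 4.91 in WT and 4.93 in Chd8 V986*/+ mice between E14.5 and 1 month.

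Tau and the tubulin fell less than doublecortin. Mapt in WT was 14.30, 14.89 and 15.11 in embryos and 13.74, 13.80 and 13.92 at 1 month, a difference of -1.02 (SE 0.11, adjp = 4.4e-07). Tubb3, an isotype used as a marker of young neurons, went from 15.23, 15.41 and 15.52 to 12.998, 13.08 and 13.17, by -2.32 (SE 0.06, adjp = 7.9e-15), and by -2.27 (SE 0.06) in Chd8 V986*/+ mice. All embryos were above all postnatal mice for both genes. Tubb3 has close paralogs among the beta-tubulins, and how reads shared between them were assigned cannot be read from the table.

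Map2 was the steadiest of the 10 genes. Its WT values were 15.29, 15.48 and 15.74 at E14.5 and 15.53, 15.58 and 15.73 at 1 month, which overlap, and the difference was 0.13 (95% confidence interval -0.05 to 0.32, adjp = 0.17). The range of its WT age means was 0.18, larger than that of only 5.2% of genes, where the median gene had 0.90. In Chd8 V986*/+ mice the difference was 0.17 (SE 0.08, adjp = 0.051), and after quantile normalization of the samples, which moved the median of all genes in WT from 0.02 to -0.10, it was -0.004 (adjp = 0.96).

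RefSeq, in its listing for the build GRCm38.p6, gave a promoter window for 6 of the 10 genes, namely Map2, Map1a, Tubb3, Map1b, Ina and Dcx. Shown are those of Dcx and Tubb3, which fell most among these, and of Map1a, which rose most, each running 5′ to 3′ along the gene and across its listed start site. Each was matched exactly and once to the mm9 genome, the build of the deposited values, which gave the positions. Capitals mark any match on either strand to 4 motifs. The letters searched were TATAAA for the TATA box and CCAAT for the CCAAT box. Those for the GC box were GGGCGG, and an E box was searched as CAGCTG. Matches of different motifs may overlap.
Dcx, chrX:140367713-140368012, minus strand: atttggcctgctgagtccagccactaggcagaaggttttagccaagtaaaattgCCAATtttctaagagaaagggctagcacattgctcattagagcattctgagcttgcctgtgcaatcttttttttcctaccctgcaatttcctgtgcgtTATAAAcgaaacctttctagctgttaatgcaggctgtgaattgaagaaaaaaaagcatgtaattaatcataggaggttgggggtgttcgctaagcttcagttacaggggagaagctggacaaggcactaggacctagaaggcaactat
Tubb3, chr8:125935203-125935502, plus strand: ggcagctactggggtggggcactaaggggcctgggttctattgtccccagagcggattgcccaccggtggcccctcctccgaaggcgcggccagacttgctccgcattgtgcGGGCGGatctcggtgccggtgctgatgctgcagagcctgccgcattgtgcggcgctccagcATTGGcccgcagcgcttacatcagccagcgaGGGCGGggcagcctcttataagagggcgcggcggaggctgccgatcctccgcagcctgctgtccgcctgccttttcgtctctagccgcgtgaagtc
Map1a, chr2:121115088-121115387, plus strand: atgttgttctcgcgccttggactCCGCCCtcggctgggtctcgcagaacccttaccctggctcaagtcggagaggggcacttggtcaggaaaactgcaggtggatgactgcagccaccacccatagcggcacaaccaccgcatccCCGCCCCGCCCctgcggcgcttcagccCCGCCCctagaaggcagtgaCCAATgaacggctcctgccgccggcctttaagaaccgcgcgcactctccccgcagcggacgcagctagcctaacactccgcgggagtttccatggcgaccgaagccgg

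The Dcx promoter shown held 1 TATA box, 1 CCAAT box and no GC box, and 43.0% of its bases were G or C. A second listed Dcx window, chrX:140367618-140367917, overlaps it and held the same numbers of matches at 44.7% G or C. The Tubb3 promoter held no TATA box, 1 CCAAT box and 2 GC boxes at 67.3% G or C, and that of Map1a held no TATA box, 1 CCAAT box and 4 GC boxes at 65.7%. None of these 3 held CAGCTG. Of all 32851 promoters in the same listing, 13.6% held a TATA box, 37.4% a CCAAT box, 35.7% a GC box and 16.3% CAGCTG, and the median promoter was 52.7% G or C. A match describes letters in this window and not a bound site. The listing used here held no window for Nefl, Nefm, Nefh and Mapt.

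By their annotated positions in mm9, the genes lie apart except for one pair. Nefl spans chr14:68701920-68707152 on the plus strand, and the longest annotated transcript of Nefm, chr14:68700647-68742903 on the minus strand, runs across it and shares 1108 exon bases with it on the opposite strand. The shorter Nefm transcript, from 68737340 to 68742903, does not reach Nefl. The study's methods name stranded libraries and the sample labels a TruSeq v2 kit. Without strand, reads from the shared bases could not be assigned to 1 of both genes. Chd8 lies on the same chromosome, 15843181 bases from Nefm. Nefh is at chr11:4838757-4848067, Ina at chr19:47089188-47099817, Mapt at chr11:104092704-104193404, Map2 at chr1:66221847-66489157, Map1a at chr2:121115336-121136568, Map1b at chr13:100191419-100286557, Dcx at chrX:140290385-140367854 and Tubb3 at chr8:125935324-125945915.

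After 1 month the changes with age were small. From 1 to 6 months, 5 of the 10 genes changed in WT, when 24.6% of all genes tested changed and 12.3% did in each direction. Nefh rose by 0.32 (SE 0.07, adjp = 0.0041), Mapt by 0.14 (SE 0.04, adjp = 0.026), Map1a by 0.14 (SE 0.05, adjp = 0.066) and Map1b by 0.13 (SE 0.05, adjp = 0.092), and Tubb3 fell by 0.20 on the log2 scale (SE 0.04, adjp = 0.0018). In Chd8 V986*/+ mice Nefh (0.25), Mapt (0.13), Map1a (0.17) and Map1b (0.17) rose and Tubb3 (-0.20) fell, against 26.8% of all genes, 14% higher and 12.8% lower. These comparisons share the mice of 1 month with those from E14.5 to 1 month.

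Tubb3 had the clearest of these later changes. At 1 month its WT values were 12.998, 13.08 and 13.17. At 6 months they were 12.82, 12.87 and 12.96, and by 12 months 12.71, 12.89 and 12.93, so that every older mouse was below every mouse of 1 month. From 1 to 6 months 4.76% of all genes were lower and 3.71% higher without overlap, and Map1a was the 1 of the 10 in the second class. Its groups all but touched, since the highest WT mouse of 1 month was at 15.9725 and the lowest of 6 months at 15.9726. Nefh in WT, from 10.58 to 10.87 among the younger mice, was 10.85, 11.04 and 11.25 among those of 6 months, overlapping at the edge. Between 6 and 12 months neither genotype showed a change in any of the 10 genes, when 0.00579% of all genes changed in WT mice and 3.43% in the heterozygotes. At an unadjusted p below 0.05 the counts were 1 of 10 in WT (Dcx, -0.30, SE 0.12) and 2 of 10 in Chd8 V986*/+ mice (Ina and Map2), beside 6.75% and 15.9% of all genes.

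Over the whole span from 1 to 12 months, Nefh (0.38, SE 0.08, adjp = 0.0040) and Mapt (0.15, SE 0.06, adjp = 0.075) rose in WT and Dcx (-0.52, SE 0.09, adjp = 0.0012) and Tubb3 (-0.22, SE 0.05, adjp = 0.011) fell, against 21.4% of all genes, 9.74% higher and 11.7% lower. Dcx and Tubb3 did so without overlap, like 4.84% of all genes, and without WT replicate 6 of 12 months the value of Dcx was -0.47 (adjp = 0.0016). In Chd8 V986*/+ mice 7 of the 10 passed the test, against 39% of all genes, 19.1% higher and 19.9% lower. Nefl (0.09), Nefh (0.30), Mapt (0.15) and Map1a (0.13) rose, and Nefm (-0.14), Ina (-0.13) and Tubb3 (-0.22) fell. Dcx in these mice differed by 0.03 (SE 0.11, 95% confidence interval -0.21 to 0.27) between 1 and 12 months. The calls for Dcx in WT and for Tubb3 in both genotypes were also made in 1 fit of all 48 samples, which gives each gene 1 spread over all ages. The other later calls were lost there, for example Nefh from 1 to 6 months in WT (adjp = 0.27). Map1b from 1 to 6 months in WT lost its call when any 1 of 8 mice was left out, replicates 1, 3, 5 and 6 of 1 month and 1, 2, 4 and 5 of 6 months, with 0.10 at the least.

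Other genes of the cytoskeleton were followed as a list of 98, grouped by role. From E14.5 to 1 month in WT, 42 rose, 46 fell and 10 did not pass the test, with a median of -0.07, shares near the 43.4% and 42.3% of all genes that rose and fell. The tubulins were split, with 5 of 13 higher and 7 lower. The alpha-tubulins Tuba4a and Tuba8 rose by 5.90 and 4.59, and Tubb2b (-4.32), Tubb5 (-2.63) and Tuba1a (-2.60), isotypes of the developing brain, fell. Among the other intermediate filament genes, Nes (-4.36) and Vim (-4.06), which encode nestin and vimentin of neural progenitors, fell, while the astrocyte filament gene Gfap rose by 8.74. Prph, which encodes peripherin, a subunit mainly of peripheral neurons, did not pass the test (-0.90).

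Most of the listed genes of growing axons fell, as Dcx did. Over this interval 42.3% of all genes fell and 43.4% rose, beside which the counts by role are set. Of 10 stathmins, CRMPs (collapsin response mediator proteins) and Gap43, 8 fell, among them Dpysl3 (-4.87), Dpysl5 (-4.08), Stmn1 (-1.81) and Gap43 (-0.91), and only Stmn3 rose (0.42). Of 16 genes for microtubule severing and tubulin modification, 10 fell and 5 rose. Vash2 (-5.14), which encodes an enzyme that removes the terminal tyrosine of alpha-tubulin, fell, and Agbl4 and Ttll7, which encode enzymes that shorten and build glutamate chains on tubulin, rose by 2.69 and 3.70. Of 5 tubulin folding cofactor genes 4 fell and 1 did not pass the test.

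The same shares of all genes, 43.4% higher and 42.3% lower, apply to the roles that follow. Of 9 motor genes 6 rose and 2 fell. Kif5a, a neuronal kinesin that carries neurofilaments, rose by 3.89, while Kif21b fell (-2.66). Of 25 other microtubule-associated and microtubule-end proteins 16 rose and 8 fell. The largest increases were those of Tppp (5.44), a tubulin polymerization protein of oligodendrocytes, Map6d1 (4.56) and Map7 (4.15). Of 12 kinases that act on tau and neurofilaments 5 rose and 4 fell, with Cdk5r2, an activator of Cdk5, at 3.09.

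From 1 to 6 months in WT, 10 of the 98 rose and 32 fell, when 12.3% of all genes rose and 12.3% fell. The median of the 98 was -0.06 beside 0.006 over all genes. Dpysl3, Tuba1c and Dpysl5 fell most (-0.55, -0.53 and -0.52), and Tuba8, Synm and Agbl4 rose most (0.41, 0.33 and 0.26). From 6 to 12 months none of the 98 passed the test in WT and 2 did in Chd8 V986*/+ mice, both lower (Spast, -0.15, and Tubb2a, -0.15), when 0.00579% and 3.43% of all genes did. At an unadjusted p below 0.05 the counts were 5 and 12, beside 6.75% and 15.9% of all genes.

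**Figure D3:**
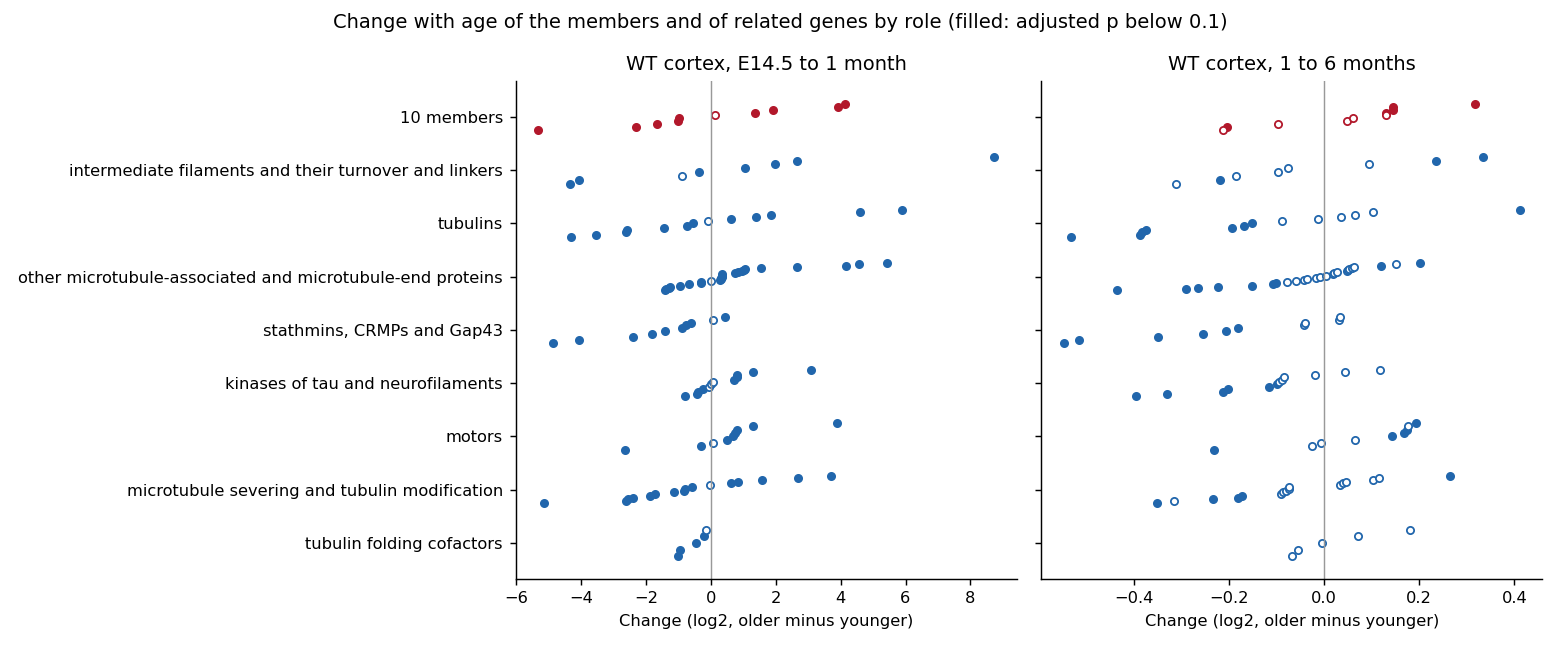
Change in WT cortex (log2, older minus younger, horizontal axes) from E14.5 to 1 month and from 1 to 6 months for the 10 genes (red) and 98 related genes by role (blue), with filled points for an adjusted p below 0.1 and open points for the rest. The stathmin and CRMP genes lie mostly below 0 in both panels, and Gfap lies farthest to the right in the first, at 8.74.

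Other cell types moved over the same interval. From E14.5 to 1 month in WT, all 10 oligodendrocyte markers, all 8 astrocyte markers and all 7 microglia markers rose, with median changes of 4.998, 3.45 and 2.67, and all 8 markers of neural progenitors fell, with a median of -2.53. The summed oligodendrocyte level (log2 of the sum of the untransformed values) went from between 11.02 and 11.38 to between 17.59 and 18.01, with none of its markers at the floor. Of 8 general neuronal markers, 5 rose and 2 fell, with a median of 2.62. From 1 to 6 months, all 10 oligodendrocyte markers fell in WT (median -0.87). The part of these cells in the changes of the 10 genes was not tested.

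To place each gene, the genes whose 8 group means lay closest to it were sought among 17311 genes, by the root mean square difference of centred means. The closest to Nefl were Kcnk3 (0.070) and Nell1, to Nefm A230070E04Rik (0.043) and Tmem117, to Nefh Ryr2 (0.079) and Rasgrf2, and to Ina Yeats4 (0.041) and Dcps. Kidins220 (0.030) and Zfp407 were closest to Mapt, Cadm1 (0.021) and Gorasp1 to Map2, Clmn (0.036) and the kinesin gene Kif5a (0.041) to Map1a, and Bclaf1 (0.036) was among the closest to Map1b. Lmnb1 (0.10) and Ptx3 were closest to Dcx, at a larger distance than for any other of the 10, and Mdm1 (0.044) and Crmp1 (0.052), a CRMP gene, to Tubb3. Within the set, Mapt and Map1b lay closest to each other (0.065), and Nefh lay closest to Map1a (0.26) and not to Nefl. These are descriptions over 8 group means.

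The comparison of genotypes asks whether the loss of 1 functional copy of Chd8 changed these genes at any age. None of the 10 was differentially expressed in limma at E14.5, 1, 6 or 12 months, when 0.00593%, 0.139%, 0.0927% and 0.0463% of all genes were. The study used DESeq2 with a correction for batch at the same threshold and called many more genes in these samples. A gene without a call here can therefore have been called there. For none of the 10 were the genotypes without overlap, as they were for 0.261%, 0.825%, 0.527% and 0.868% of all genes. At an unadjusted p below 0.05, limma gave 0, 0, 0 and 1 of the 10, beside 4.56%, 8.8%, 7.59% and 11.6% of all genes. None of the 98 related genes was called at any age either, with 0, 3, 2 and 10 at an unadjusted p below 0.05. The test of a difference between the genotype effects at E14.5 and at 1, 6 or 12 months, or at 1 and 12 months, called none of the 10, when 0%, 0%, 0.0635% and 0.00578% of all genes were called. At an unadjusted p below 0.05 these tests gave 2, 1, 1 and 1 of the 10, beside 4.6%, 5.08%, 11.5% and 11.1% of all genes.

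**Figure D4:**
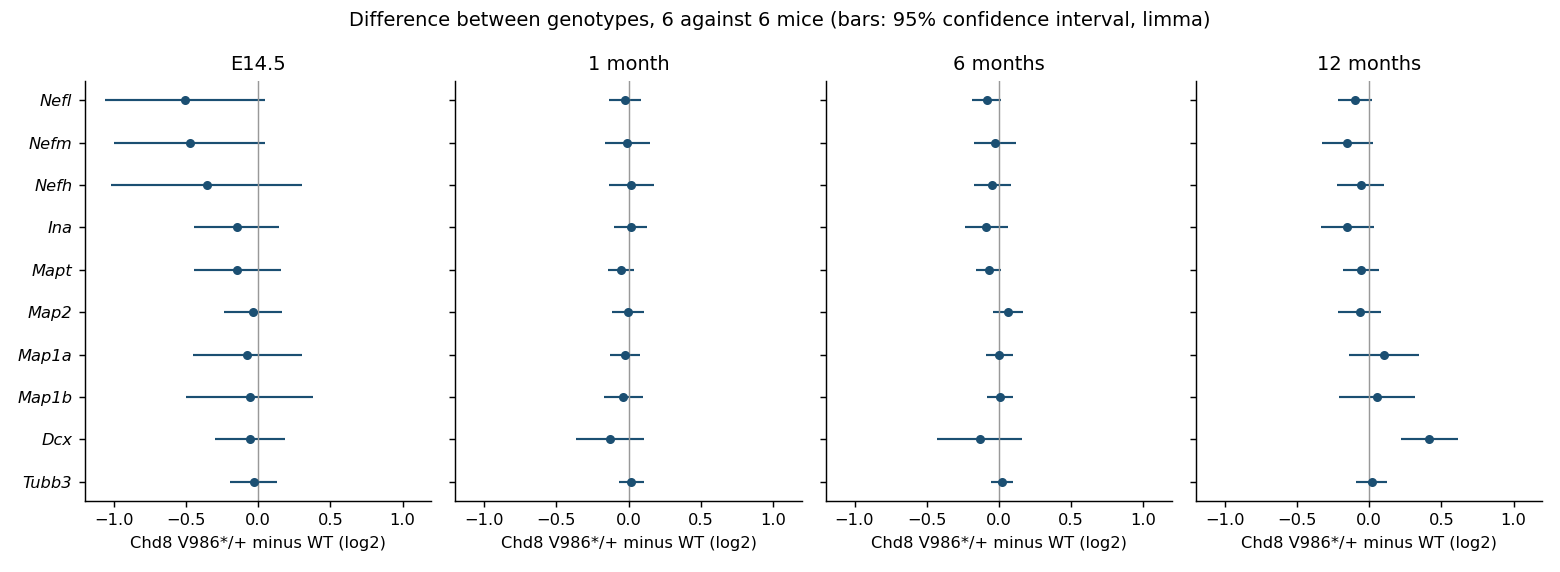
Difference between Chd8 V986*/+ and WT mice (log2, horizontal axes) for the 10 genes at E14.5, 1, 6 and 12 months, with 95% confidence intervals from limma over 6 against 6 mice. Intervals are wide at E14.5, where that of Nefl runs from -1.06 to 0.05, and Dcx at 12 months is the only gene whose interval leaves out 0.

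At 1 and 6 months the intervals were narrower than at E14.5 except for that of Dcx at 6 months. The interval of Dcx was -0.30 to 0.19 at E14.5, -0.36 to 0.11 at 1 month and -0.43 to 0.16 at 6 months. At 1 month the differences ran from -0.13 (Dcx) to 0.02, and the interval of Nefl was -0.14 to 0.09, that of Nefh -0.14 to 0.17 and that of Tubb3 -0.07 to 0.11. At 6 months they ran from -0.13 (Dcx) to 0.06 (Map2), and the interval of Nefl was -0.18 to 0.02 and that of Map1b -0.08 to 0.10. Differences beyond these bounds were not compatible with the 95% intervals, while smaller ones could not be told from none.

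At E14.5 all 10 differences were below 0, with a median of -0.11 beside 0.001 over all genes, and those of the neurofilament chains were the largest. The sign was not firm for the smaller ones, since Map2, Map1b, Dcx and Tubb3 were at or above 0 after quantile normalization (0.03 for Tubb3), and Map1a, Map1b and Dcx without Chd8 V986*/+ replicate 1. Nefl in WT embryos was 10.20, 10.86, 10.91, 11.57, 11.59 and 12.32, and in Chd8 V986*/+ embryos 10.55, 10.71, 10.72, 10.79, 10.80 and 10.86. The Chd8 V986*/+ embryos were close together, and the WT embryos lay on both sides of them, 5 above all 6 and replicate 6 below. The difference was -0.51 (SE 0.26, 95% confidence interval -1.06 to 0.05, adjp = 0.98). Nefm differed by -0.47 (SE 0.24, adjp = 0.98) and Nefh by -0.36 (SE 0.31, adjp = 0.98). In 1 fit of all 48 samples, which called 0.711% of all genes, Nefl (adjp = 0.15) and Nefm (adjp = 0.22) again did not pass. The study formed its clusters from genes that it called between genotypes at any age in these same samples. Nefl and Nefm are in such a cluster, so the study called them at some age. Their direction here is not independent of it.

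The WT embryos with high neurofilament values also had high values of genes from outside the cortex. The mean VST value of 35 markers of midbrain, hindbrain and spinal cord, mostly Hox genes, was 3.49, 4.16, 4.31, 3.83, 5.55 and 3.25 in WT replicates 1 to 6 and 3.25, 3.17, 3.95, 3.49, 3.49 and 3.37 in Chd8 V986*/+ replicates 1 to 6. Replicates 5, 3 and 2 of WT were highest in this mean as they were in Nefl, Nefm and Nefh, and replicate 6, the lowest WT embryo in Nefl and Nefh, was the lowest WT embryo in the mean. In Nefm the lowest WT embryo was replicate 1 (10.63). Among Chd8 V986*/+ embryos the order did not hold for Nefl and Nefm. There replicate 2, lowest in the mean, was highest in both (10.86 and 11.16), and replicate 3, highest in the mean, had 10.79 and 10.96. In Nefh this replicate 3 (6.51) was below only replicate 4 (6.57). Of the 35 markers, 24 were above the floor in WT and 13 in Chd8 V986*/+ embryos, and the summed level ran from 10.42 to 12.81 in WT and from 10.36 to 11.61 in Chd8 V986*/+ embryos. At or near the floor in both genotypes were Hoxa6, Hoxa7, Hoxb1, Hoxb6, Hoxb7, Hoxb8, Hoxc5, Hoxc6, Hoxc8, Hoxc9 and Hoxd4, and those also there in Chd8 V986*/+ embryos included Hoxa2 to Hoxa5, Hoxb2, Hoxb3, Hoxb5, Hoxc4, Hoxd3 and Phox2a.

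Markers of peripheral sensory ganglia, whose neurons are rich in neurofilaments, had means of 5.11 to 6.91 in WT and 4.99 to 5.61 in Chd8 V986*/+ embryos, with summed levels of 10.46 to 11.61 and 10.51 to 10.92. Of 11 measured, 11 and 10 were above the floor, and Trpv1 was near the floor in Chd8 V986*/+ embryos. Markers of cortical glutamatergic neurons ran the other way, with means of 10.93 to 11.89 in WT and 11.53 to 12.03 in Chd8 V986*/+ embryos, and WT replicate 5 was the lowest.

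With the mean of the 35 markers as a covariate, the genotype difference was -0.01 for Nefl (SE 0.14), -0.01 for Nefm (SE 0.14) and 0.24 for Nefh (SE 0.16). The marker mean itself differed between genotypes, at 4.10 in WT and 3.45 in Chd8 V986*/+ embryos. This fit therefore cannot tell an effect of genotype from one that goes with the markers. Without WT replicate 5 and without the covariate, the genotype difference was -0.29 for Nefl and -0.25 for Nefm, and without WT replicate 6 that of Nefl was -0.71. Leaving out WT replicate 6 was also the only change among those tried that gave a difference of genotype effects between ages in these genes: that of Nefl was 0.69 (adjp = 0.054) from E14.5 to 1 month, 0.63 (adjp = 0.075) to 6 months and 0.62 (adjp = 0.040) to 12 months. With all samples these values were 0.48, 0.42 and 0.41, with adjp of 1.0, 0.98 and 0.46, and the last was -0.10 when the marker mean was added to the model. A part of other tissue in the embryonic values was not tested beyond these values.

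**Figure D5:**
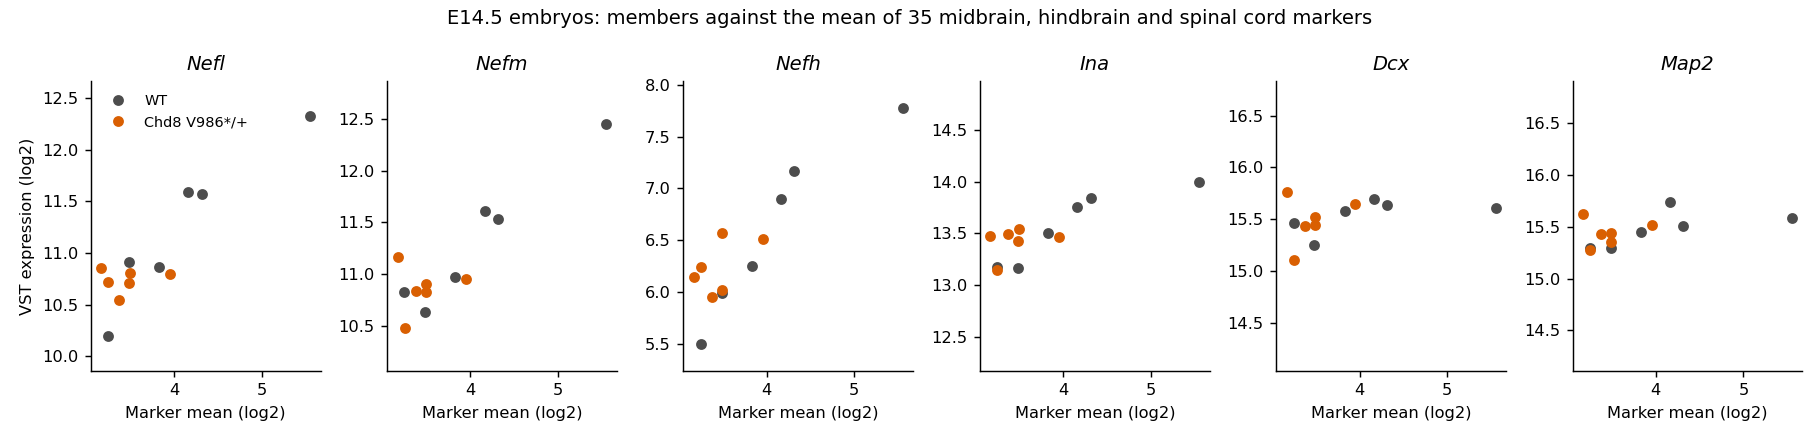
VST expression (log2, vertical axes of equal span) of Nefl, Nefm, Nefh, Ina, Dcx and Map2 in the 12 embryos of E14.5 against the mean VST value of 35 markers of midbrain, hindbrain and spinal cord (log2, horizontal axes), WT in gray and Chd8 V986*/+ in orange. The WT embryo at a marker mean of 5.55 is the highest for Nefl (12.32), Nefm (12.45) and Nefh (7.78), while Dcx and Map2 are nearly level.

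The other members were closer at E14.5. The differences were -0.15 for Ina (SE 0.14), -0.14 for Mapt (SE 0.14), -0.08 for Map1a (SE 0.18), -0.06 for Map1b (SE 0.20), -0.06 for Dcx (SE 0.11), -0.04 for Map2 (SE 0.09) and -0.03 for Tubb3 (SE 0.08). The values of Dcx in WT embryos, from 15.25 to 15.70, lay within those of Chd8 V986*/+ embryos, from 15.11 to 15.76. Without both libraries numbered 1, the SE of Map1a fell to 0.08 and that of Map1b to 0.09, at differences of -0.07 and -0.03.

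At 12 months Dcx stood apart from the other 9. Its values were 9.46, 9.68, 9.70, 9.72, 9.77 and 9.88 in WT and 9.77, 10.01, 10.12, 10.12, 10.26 and 10.43 in Chd8 V986*/+ mice. Of the latter, 5 were above every WT mouse, and replicate 1, at 9.77, lay among them. The difference was 0.42 (SE 0.09, 95% confidence interval 0.22 to 0.62, 1.33-fold) with an unadjusted p of 0.0004 and adjp = 0.21 in limma. The study placed Dcx in a cluster formed from these same samples, out of genes that it called between genotypes at some age. This is therefore not independent evidence of its direction.

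The call for Dcx turned on the fit. In 1 fit of all 48 samples it passed the test (adjp = 0.089), where 3.01% of all genes did and 1.36% were higher, and without WT replicate 6 of 12 months, in which long transcripts were low and Dcx was lowest (9.46), that fit gave 0.37 with adjp = 0.28. In the fit of the 12 mice of this age, it was called when WT replicate 3 (0.45, adjp = 0.057) or Chd8 V986*/+ replicate 1 (0.49, adjp = 0.073) was left out. The genotype effects of 12 months and 1 month differed by 0.54 (SE 0.18, adjp = 0.24).

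Markers of neural progenitors moved with Dcx in some of the mice of this age. Their mean was 7.31, 7.21, 7.32, 7.27, 7.12 and 7.37 in WT replicates 1 to 6 and 7.29, 7.86, 8.13, 7.61, 7.43 and 7.36 in Chd8 V986*/+ replicates 1 to 6. Chd8 V986*/+ replicates 3 and 2, the highest in Dcx, were the highest in this mean, and replicate 1, the lowest in Dcx, was the lowest. The order did not hold throughout. WT replicate 6 was the highest WT mouse in the mean (7.37) and the lowest in Dcx (9.46), and Chd8 V986*/+ replicate 6 lay within the WT range of the mean (7.36) with a Dcx value of 10.12, above every WT mouse. All 8 markers were above the floor, and their summed level ran from 11.23 to 11.61 in WT and from 11.35 to 12.03 in Chd8 V986*/+ mice. Of the 8, 6 were higher in Chd8 V986*/+ mice, as were 51.4% of all genes. None passed the adjusted test, including Eomes, a gene of intermediate progenitors (1.92, SE 0.72, adjp = 0.34), and Pax6 (0.33, SE 0.12, adjp = 0.31), both of which are in the study's own clusters. The group means of the 8 markers were 7.27 in WT and 7.62 in Chd8 V986*/+ mice, and Eomes alone made up most of that difference. The 9 striatal markers had differences below 0 (median -0.33), of which none passed the adjusted test. In limma 2 of them had an unadjusted p below 0.05, beside 11.6% of all genes. Their mean was 10.25 to 10.78 in WT, and in Chd8 V986*/+ mice it was 9.59 and 9.67 in replicates 3 and 5 and within the WT range in the other 4. The part of these cells in the value of Dcx was not tested.

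The neurofilament genes were slightly lower at 12 months, and none passed the test. The differences were -0.10 for Nefl (SE 0.06), -0.15 for Nefm (SE 0.08), -0.06 for Nefh (SE 0.08) and -0.15 for Ina (SE 0.09). Nefl in WT was 13.16, 13.33 and 13.43 (lowest, median and highest) and in Chd8 V986*/+ mice 13.15, 13.23 and 13.27, within the WT range but for 1 mouse. Those of the remaining genes lay between -0.07 (Map2) and 0.10 (Map1a), and that of Map1a was -0.00051 and that of Map1b -0.07 without WT replicate 6. Among the related genes the smallest unadjusted p was that of Dpysl3 (0.26, SE 0.08, adjp = 0.27), which encodes a protein of growing axons and is in the study's clusters, and only Tubb4b was without overlap between the genotypes (-0.16, SE 0.05, adjp = 0.29).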

How the data were processed

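RNA from the cortex of 48 mice was sequenced as polyA-selected libraries (the methods name a stranded KAPA kit, the labels TruSeq v2). The authors aligned reads to mm9 with STAR (2.5.2b) and quantified genes with Salmon (0.11.3), as listed in the submitters' processing notes, and deposited DESeq2 (listed there as DESeq 1.22.2) variance-stabilized values on a log2 scale for 24444 genes. The deposited values carry no read counts, and the depth per sample, which the study lists separately, was not used here, so no counting intervals are given. Per-gene means of replicates 1 to 3 and 4 to 6 were equal in the deposited values, so a difference between these sets had been removed before deposit. What the sets are is not given in the sources used here.

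Groups followed the sample labels. Genes with a mean at least 0.5 above the floor were tested with limma (3.58.1, R 4.3.3; eBayes with trend) in the 12 samples of each comparison, or all 48 for differences between genotype effects, with Benjamini-Hochberg adjustment over all genes and a threshold of 0.1. The test was checked on simulated data. Descriptions were made in Python (3.11.15) with pandas (2.3.3), numpy (2.4.6) and scipy (1.17.1), and plots with matplotlib (3.10.9). Alternatives were a replicate block, 1 fit of all 48 samples, other filters, quantile normalization, median centring, the set of replicates or a marker mean as covariate, no trend, a threshold of 0.05 and leaving out each sample. The check on transcript length and the fits without the libraries that stood apart were chosen after seeing the data.

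The 10 genes and the lists were chosen with earlier results of these data known. Named were all 10, the 2 genes of nearest profile to each, Chd8, and, of the 98 related genes, any called between genotypes and the 3 largest called increases and decreases of each WT interval between adjacent ages. Other related genes were named after their values were seen. A few genes that this rule or the marker lists hold are not reported here.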

Additional observations from a re-analysis of the deposited data

Results flagged for a closer look

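In 6 of the 80 sets of 6 samples (10 genes, each genotype and age), 1 mouse lay far from the other 5, with a gap to its neighbour, as a share of the whole range, above the 95% critical value of Dixon's test. Chance alone sets apart about 1 in 20 such sets. Of the 6, 5 were embryos numbered 1. Map1a was lowest in WT replicate 1 (11.29) and in Chd8 V986*/+ replicate 1 (11.21) of E14.5, and Map1b was lowest in the same embryos (15.78 and 15.59). Ina was lowest in Chd8 V986*/+ replicate 1 of E14.5 (13.14). Transcripts of at least 8000 bases were low in both of these libraries, by 0.41 and 0.60 relative to those of at most 2000 bases, and Map1a and Map1b have transcripts of 11825 and 11852 bases. The part of this in the low values was not tested. The remaining value was the highest, that of Map1a in Chd8 V986*/+ replicate 1 of 12 months (16.19).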

How the results depend on the processing

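Of 4850 values of single genes under alternatives, 4738 kept the side of the threshold and either kept their direction or moved by less than the standard error. Among values with no call, 194 changed sign, of which 25 moved by more than the standard error. A further 66 lost a call (16 of them in 1 fit of all 48 samples and 37 when 1 sample was left out) and 20 gained one. The 1 called value that reversed is given next. The call for Map2 from E14.5 to 1 month in Chd8 V986*/+ mice turned from 0.17 to -0.0041 after quantile normalization. The cause was not tested. Values on this scale cannot show differences smaller than the intervals given, and low values such as those of Nefh at E14.5 are compressed.

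Calls among the 10 genes changed with the fit. In 1 fit of all 48 samples, 1 gene was called between genotypes at 12 months (0 in the reported fit). From 1 to 6 months the counts were 1 in WT and 1 in Chd8 V986*/+ mice (5 each), and from 1 to 12 months 2 (4) and 1 (7). At a threshold of 0.05, 3 were called from 1 to 6 months in WT. Leaving out 1 sample gave 0 to 1 for the genotypes at 12 months, 3 to 5 for WT from 1 to 6 months and 3 to 4 from 1 to 12 months, and 4 to 6 and 5 to 7 in Chd8 V986*/+ mice. It gave 0 to 1 for each difference of genotype effects between E14.5 and a later age, the 1 being Nefl without WT replicate 6. The age calls of Nefh, Tubb3 and Dcx held with each sample left out in turn.

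Counts over all genes moved more. For genotype at E14.5 the reported count was 1. It was 2 with a stricter filter, quantile normalization or the set of replicates as covariate, 3 without a filter, 0 without trend or with the marker mean, 120 in 1 fit of all 48 samples and 30 in that fit without WT replicate 5. At 1 month (24) it was 15 at 0.05 and 37 in 1 fit of 48. At 6 months (16) it was 5 at 0.05 and 4 without trend. At 12 months (8) it was 3 at 0.05, 520 in 1 fit of 48 and 72 there without WT replicate 6. Leaving out 1 sample gave 0 to 2, 3 to 32, 5 to 21 and 2 to 251 at the 4 ages, the last without WT replicate 3. From 6 to 12 months, WT (1) had 0 at 0.05, 0 with the set of replicates, 7 in 1 fit of 48 and 0 to 2 with 1 sample left out, and Chd8 V986*/+ mice (592) had 260, 101 in 1 fit of 48, 257 without trend, and 209 to 814 with 1 sample left out.

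For the difference of genotype effects between E14.5 and 6 months (0), the counts were 2 after quantile normalization and 1 with the marker mean. For E14.5 and 12 months (11) they were 4 at 0.05, 24 with the stricter filter, 0 with the marker mean and 0 without WT replicate 5 of E14.5 and WT replicate 6 of 12 months. For 1 and 12 months (1) they were 5 without a filter, 4 with the stricter one, 0 after quantile normalization, 17 with median centring and 3 without trend. With 1 sample left out they ran from 0 to 118 for E14.5 and 1 month, 0 to 187 for 6 months and 0 to 695 for 12 months, each highest without WT replicate 6 of E14.5, and from 1 to 256 for 1 and 12 months, highest without WT replicate 3 of 12 months.

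By the labels, samples of both genotypes share only a replicate number. The mean correlation of same-numbered deviations was 0.23 at E14.5 (0.01 to 0.58, 4 of 6 pairs above 0.1, and 4 of 6 WT embryos closest to the Chd8 V986*/+ embryo of their own number), 0.02 at 1 month, 0.05 at 6 months and -0.03 at 12 months. At no age were all pairs above 0.1, so the numbers were not taken as pairs, although at E14.5 some same-numbered embryos deviated together. With the replicate number as a block, genotype gave 2, 13, 30 and 2 genes at the 4 ages, 129 at E14.5 in 1 fit of all 48 samples, and WT from 6 to 12 months 0. None of the 10 genes was called between genotypes with the block at any age.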
